A study of Drosophila melanogaster with 4 samples.

Results

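Cytosolic ribosomal proteins of Drosophila melanogaster were examined in whole adult females given juvenile hormone III (JH III) or its solvent. The members are the genes that a probe set of the Affymetrix DrosGenome1 array names alone and whose symbol begins with RpL or RpS followed by a digit or P. Each gene was to be represented by its brightest probe set over all 4 arrays. The rule found 37 genes with 1 probe set each, out of 10843 genes that the arrays name singly. A current gene table holds 92 genes with such symbols, and the other 55 were not analysed here. The JH III group held 2 samples of 30 y,w females, each fly dosed on the body surface with 0.1 µl of JH III at 187 mM in acetone. The acetone group held 2 samples of 30 y,w females that received 0.1 µl of acetone alone. All flies had been kept off yeast for 5 days after eclosion, to lower their own hormone per the labels, and all were frozen 12 hours after treatment. Each sample was hybridised to 1 array.

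A cytosolic ribosome consists of a large and a small subunit, each built from ribosomal RNA and a set of small, mostly basic proteins. RpL proteins belong to the large subunit, which forms peptide bonds, and RpS proteins to the small subunit, which reads the messenger RNA. The P proteins form a flexible stalk on the large subunit that recruits elongation factors. Ribosomal protein genes are among the most highly transcribed genes of growing cells, and in flies loss of 1 copy of many of them gives the Minute phenotype of slow development and thin bristles. In an egg-laying female the ovary, whose nurse cells supply ribosomes to the egg, is a large user of these transcripts. By their known roles 27 of the 37 members are structural parts of the ribosome that have their main copy here (13 of the large subunit, 3 of the P stalk and 11 of the small subunit). Another 7 are the other copy of a duplicated gene. The remaining 3, RpL24-like, RpL7-like and RpLP0-like, are relatives of yeast ribosome assembly factors rather than parts of the finished ribosome, so that the symbol rule takes in more than ribosomal proteins.

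The arrays themselves differed, and these differences touch every value below. JH III replicate 1 correlated with the other 3 arrays at 0.728 to 0.737 over tested probe sets on the log2 scale, against 0.835 to 0.863 among the other 3. The GAPDH control had a 3' to 5' signal ratio, a measure of how far labelled copies reach towards the start of a transcript, of 2.32 and 5.75 in the JH III pools, against 15.5 and 10.2 in the acetone pools. For the eIF-4a control it was 18.3 and 18.9 in the JH III pools, against 75.0 and 46.8 in the acetone pools. The actin control overlapped between groups, with 3.40 and 16.7 in the JH III pools, against 35.6 and 14.2 in the acetone pools. The spiked hybridisation control CreX gave 470523 and 194222 in the JH III pools, against 77089 and 190511 in the acetone pools, although all 4 arrays had been scaled to the same trimmed mean. Acetone replicate 1 was on another chip lot than the rest, and both acetone arrays were scanned before both JH III arrays, so that scan order and treatment cannot be told apart. Nothing in the labels says more of the origin of the pools, and the p-values measure the spread between these samples only.

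No cytosolic ribosomal protein transcript passed the test between JH III and acetone. Of the 37 genes, 33 were above the lowest 25% of probe sets by mean signal and were tested with limma on log2(signal + 82.8), a scale that understates differences of dim probe sets. Of these, 0 were called at a Benjamini-Hochberg adjusted p of 0.05, where 0.162% of the 10474 tested probe sets were called, and 0 had an unadjusted p under 0.05, where 7.29% of all tested probe sets did. The methods' t-test, the per-gene test that the labels name, called 0 members and 0 of all tested probe sets. At an unadjusted p under 0.05 it gave 0 members, where 5.79% of all tested probe sets were under it. The smallest adjusted p of a member was 0.71 (RpL28).

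Most members nevertheless lay somewhat below the acetone level. The log2 difference, JH III minus acetone, was below 0 for 26 of the 33 tested members (78.8%), where 43.9% of all tested probe sets were below 0. The median over the tested members was -0.32, with single values between -0.78 (RpL37-1) and 0.36 (RpL39) among the 32 of them that were above the control level (the 95th percentile over 23 controls that were not spiked) on all 4 arrays, beside a median of 0.10 over all tested probe sets. The other tested member, RpS10a, was above that level on 1 array only and enters the counts and medians but has no difference of its own here. In 12 of the 33 (36.4%) both JH III arrays were below both acetone arrays, and in 0 both were above, where the same held for 15.3% and 22.2% of all tested probe sets. After quantile normalization the median of the members was -0.06, with 19 below 0 (49.7% of all tested probe sets) and 5 members lower and 5 higher without overlap (18.4% and 17.3% of all tested probe sets). With each array centred on its own median it was -0.55, with 29 below 0 (57.7% of all tested probe sets) and 18 lower and 0 higher without overlap (24.3% and 13.9% of all tested probe sets), and the median of all tested probe sets then moved to -0.14. Other bright probe sets gave similar shares. Among 170 other tested probe sets with a mean signal above 10000, 78.8% had a difference below 0, 45.9% were lower without overlap and the median was -0.38. For the 26 members above that signal the shares were 84.6% and 42.3% and the median -0.32. In whole-body RNA, fewer cells that express a gene and less of its RNA per cell cannot be told apart.

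**Figure D1:**
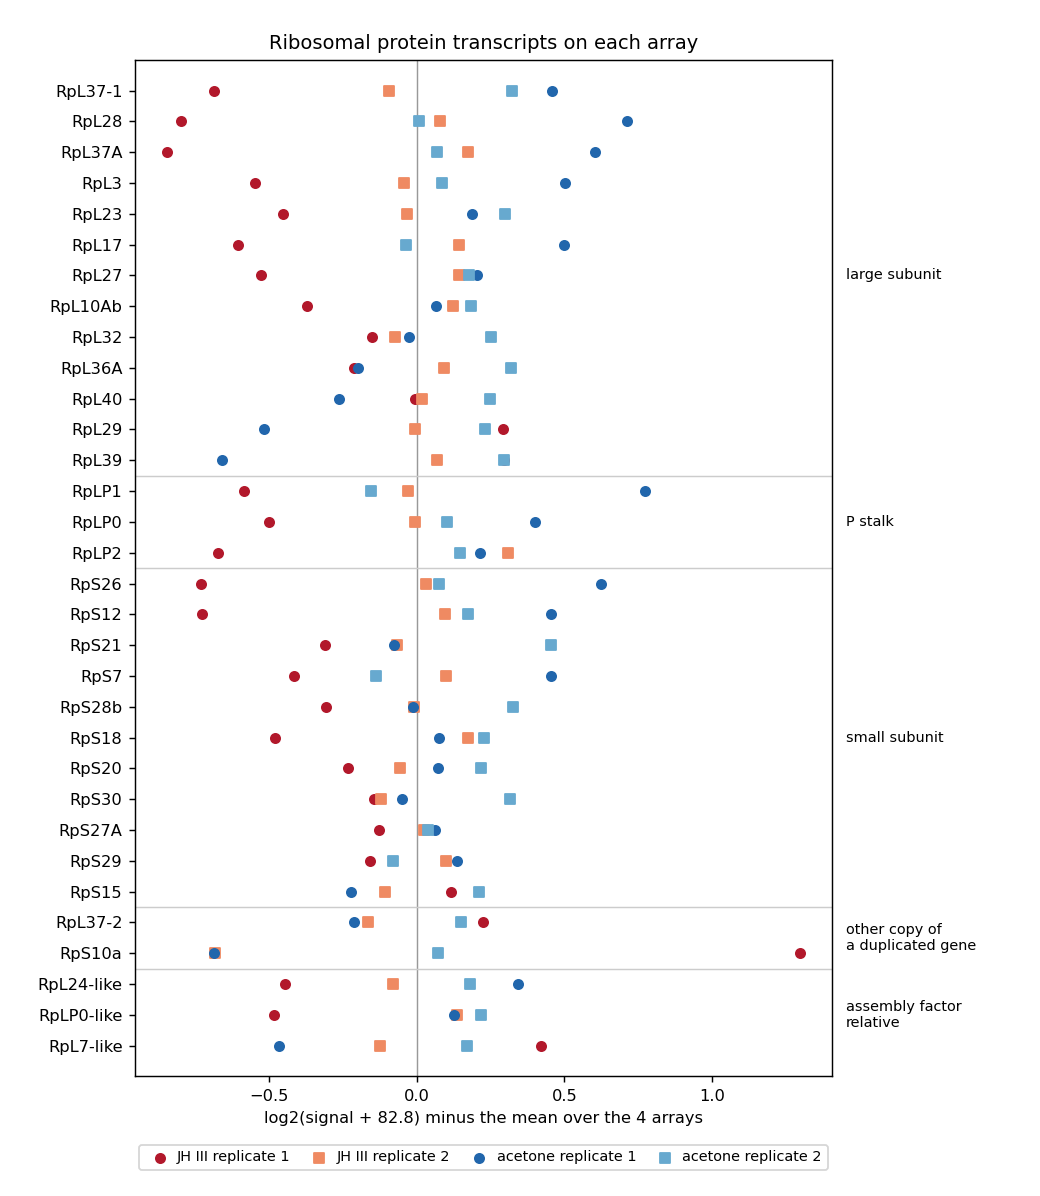
Log2(signal + 82.8) of 32 tested members on each array, as the deviation from the gene's mean over the 4 arrays (x axis, log2 units); red symbols are the JH III arrays and blue symbols the acetone arrays, circles replicate 1 and squares replicate 2. JH III replicate 1 is the lowest point of 25 of the 32 genes, and acetone replicate 1 is the highest of 14 and the lowest of 7.

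The size of the difference moved with single arrays, those of JH III more than those of acetone. JH III replicate 1 was the lowest of the 4 arrays for 26 of the 33 members (78.8%), where it was so for 27.8% of all tested probe sets. It was the lowest and acetone replicate 1 the highest for 14 members (42.4%, against 10.6% of all tested probe sets). Other bright probe sets shared both traits, with shares of 67.6% and 45.9% among the 170 with a mean signal above 10000. Without JH III replicate 1 the median of the members was -0.13. Without JH III replicate 2 it was -0.57, without acetone replicate 1 it was -0.36 and without acetone replicate 2 it was -0.23. JH III replicate 2 was also set against acetone replicate 2 alone, a pair chosen after the data were seen and with no test. The median of the members was then -0.13, with 25 of the 33 below 0. Over all tested probe sets the median was 0.01, with 49.5% below 0. Other bright probe sets gave similar values here too. The median of the 170 was -0.16, with 71.2% below 0, against -0.12 and 76.9% for the 26 members above that signal. The GAPDH, eIF-4a and actin ratios were likewise lowest in JH III replicate 1 and highest in acetone replicate 1, and their part in the result was not tested.

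Among the large subunit proteins the differences ran from RpL37-1 at the low end to RpL39 at the high end. RpL37-1, a zinc-binding protein of the large subunit, had signals of 21204 and 32051 in the JH III pools, against 47018 and 42831 in the acetone pools. Both JH III values were below both acetone values, with means of 26627 ± 7670 for JH III and 44925 ± 2960 for acetone (SD, n = 2 each). The log2 difference of -0.78 ± 0.48 (SE) had a 95% interval of -1.75 to 0.19 and did not pass (limma adjusted p = 0.767). RpL28, which has no counterpart in yeast ribosomes, had 5039 and 9326 in the JH III pools, against 14519 and 8887 in the acetone pools. Its groups overlapped, since JH III replicate 2 exceeded acetone replicate 2, and the gap between the acetone arrays was about as wide as that between treatments (-0.72 ± 0.38 SE, limma adjusted p = 0.71). RpL37A, another zinc-binding protein, had 16528 and 33626 in the JH III pools, against 45261 and 31201 in the acetone pools (-0.67 ± 0.47 SE, limma adjusted p = 0.776), with the same overlap of the second replicates.

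RpL3, a protein near the peptidyl transferase centre, had 22399 and 31811 in the JH III pools, against 46490 and 34820 in the acetone pools. Its groups did not overlap, and the log2 difference was -0.59 ± 0.48 (SE, limma adjusted p = 0.815). RpL23, which lies at the face where the subunits meet, had 20310 and 27206 in the JH III pools, against 31732 and 34295 in the acetone pools, again without overlap (-0.49, limma adjusted p = 0.846). RpL17, which lines the tunnel through which the new chain leaves, had 21371 and 35967 in the JH III pools, against 46023 and 31746 in the acetone pools. In RpL17 the second replicates stood the other way round from the first, JH III above acetone, and the difference was -0.46. RpL27 and RpL10Ab, the main copy of the RpL10A gene pair, differed by -0.38 and -0.25, and RpL36A by -0.12. A second probe set that RpL36A shares with CG14645, and that the rule leaves out, did not overlap between groups. Its signals were 40623 and 54080 in the JH III pools, against 56766 and 70693 in the acetone pools (-0.43 ± 0.55 SE). That difference was larger in size than at RpL36A's own probe set, where the groups overlapped. It lay inside the wide interval of the own probe set, -1.23 to 0.99.

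RpL32, often called rp49 and widely used as a reference transcript in fly quantitative PCR, was among the steadiest members. Its signals were 53958 and 56935 in the JH III pools, against 58939 and 71392 in the acetone pools. Both JH III values were below both acetone values by a small margin, and the log2 difference was -0.23 ± 0.57 (SE, limma adjusted p = 0.946), with an interval of -1.36 to 0.91. The spread between its own replicates was 0.14 on the log2 scale (pooled SD), less than the SE, because the fit takes most of its variance from other bright probe sets.

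A few large subunit transcripts ran the other way between replicate 1 arrays. RpL39, a very small protein of the exit tunnel, had 62137 and 53116 in the JH III pools, against 32016 and 62134 in the acetone pools. Acetone replicate 1 was the low value and acetone replicate 2 matched JH III replicate 1, so that the groups overlapped (0.36 ± 0.55 SE, limma adjusted p = 0.908). RpL29, another short basic protein, had 77225 and 62891 in the JH III pools, against 44007 and 74017 in the acetone pools (0.29 ± 0.58 SE, limma adjusted p = 0.933). RpL40, made as a fusion with ubiquitin that is cut apart after translation, had 46155 and 46895 in the JH III pools, against 38566 and 54981 in the acetone pools. Its JH III values lay between the acetone values, and the difference was 0.01 ± 0.53 (SE, limma adjusted p = 0.998). Without acetone replicate 1 the differences of RpL39, RpL29 and RpL40 were -0.11, -0.09 and -0.24, on the other side of 0.

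The P stalk members were all below the acetone level with all 4 arrays, and in the second replicates only RpLP0 was. RpLP0, the base of the stalk, had 21643 and 30523 in the JH III pools, against 40459 and 32916 in the acetone pools. Its groups did not overlap (-0.50 ± 0.47 SE, limma adjusted p = 0.844). A second probe set that RpLP0 shares with euc, also left out by the rule, was far dimmer and overlapped between groups. Its signals were 367 and 444 in the JH III pools, against 217 and 509 in the acetone pools (0.21 ± 0.61 SE). In JH III replicate 1 it was under the control level of that array (369). RpLP1, which binds RpLP0 as a dimer with RpLP2, had 27955 and 41134 in the JH III pools, against 71792 and 37720 in the acetone pools. Acetone replicate 1 stood far above the rest, and JH III replicate 2 exceeded acetone replicate 2 (-0.62 ± 0.52 SE, limma adjusted p = 0.825). RpLP2 had 21120 and 41850 in the JH III pools, against 39178 and 37399 in the acetone pools. The acetone arrays agreed closely, and the JH III arrays lay on either side of them (-0.36 ± 0.49 SE, limma adjusted p = 0.897). The difference of RpLP2 was 0.13 without JH III replicate 1.

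Of the 11 small subunit members 10 were below 0, with a median of -0.30, beside 10 of 13 and -0.38 for the large subunit. RpS26, which contacts the messenger RNA where it leaves the ribosome, had 19998 and 33958 in the JH III pools, against 51274 and 35076 in the acetone pools. The second replicates were nearly equal, and the log2 difference was -0.70 ± 0.48 (SE, limma adjusted p = 0.773). RpS12, known in flies for its part in the competition between cells that differ in ribosomal protein gene dose, had 12171 and 21617 in the JH III pools, against 27737 and 22800 in the acetone pools (-0.63 ± 0.43 SE, limma adjusted p = 0.768). Neither RpS26 nor RpS12 overlapped between groups, but the lower edge of the acetone values and the upper edge of the JH III values were close in both. RpS21, whose loss overgrows the blood-forming organs of fly larvae, had 44765 and 53071 in the JH III pools, against 52626 and 76121 in the acetone pools (-0.38). RpS20 and RpS30, the last encoded as a fusion with a ubiquitin-like protein, did not overlap and differed by -0.29 and -0.26. RpS7, RpS28b and RpS18 overlapped, at -0.32, -0.32 and -0.30.

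The steadiest small subunit transcript was RpS27A, the other ubiquitin fusion. It had 29079 and 32353 in the JH III pools, against 33225 and 32690 in the acetone pools. Both JH III values were below both acetone values, but by a small margin, with a pooled replicate SD of 0.08 on the log2 scale, and the difference was -0.10 ± 0.47 (SE, limma adjusted p = 0.969). RpS29, a small zinc-binding protein, had 1736 and 2090 in the JH III pools, against 2145 and 1835 in the acetone pools, with overlap (-0.06 ± 0.36 SE). RpS15, which sits in the head of the small subunit, had 72410 and 62075 in the JH III pools, against 57317 and 77471 in the acetone pools, and the JH III values lay between the acetone values (0.01 ± 0.59 SE).

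**Figure D2:**
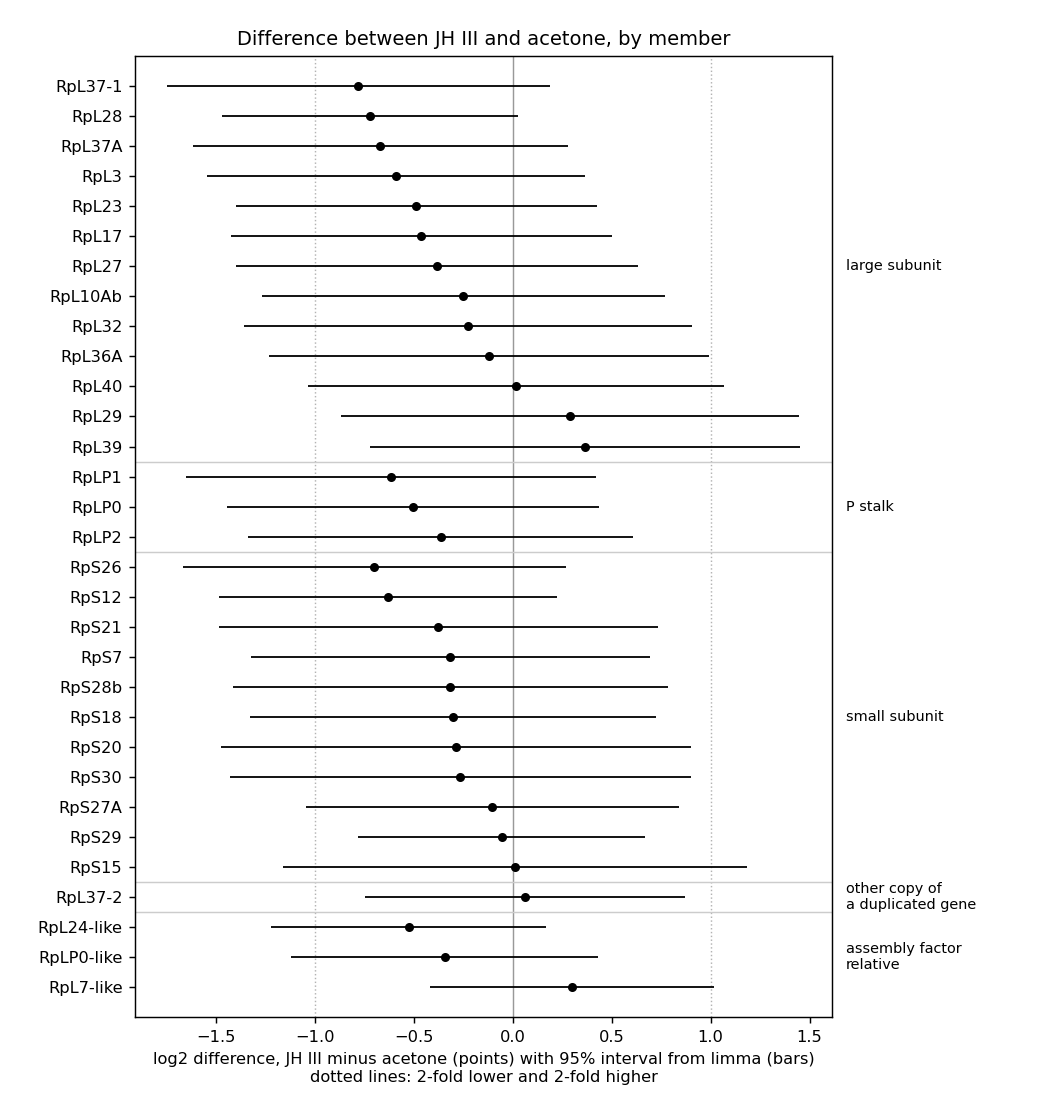
Log2 difference, JH III minus acetone, of 31 tested members (points) with the 95% interval from limma (bars), grouped by role; dotted lines mark 2-fold lower and 2-fold higher. RpS10a, above the control level on 1 array, is not drawn. Every interval includes 0, and those of RpS29 and RpL37-2 stay within the dotted lines.

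The intervals show how much the 4 arrays can resolve. Every tested member's 95% interval included 0. For RpS29 (-0.78 to 0.67) and RpL37-2 (-0.75 to 0.87) the interval stayed inside a 2-fold difference in either direction. For 30 of the 33 tested members it reached past 2-fold in at least 1 direction, so that with this number of arrays a difference of that size could be missed.

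The other copies of duplicated genes were mostly not measurable. RpL10Aa, RpL22-like (a testis-enriched relative of RpL22 in flies) and RpS19b exceeded the control level on 0 of 4 arrays. That level was 369 and 240 in the JH III pools, against 139 and 295 in the acetone pools. RpS28a exceeded it on 1 (150 in acetone replicate 1) and was, with those 3, below the filter and not tested. RpS10a passed the filter through 1 array, JH III replicate 1 with 447, against 51.3 in JH III replicate 2, and 50.8 and 143 in the acetone arrays. No fold is given for these 5, since neither group was above background on both arrays. RpL37-2, the other copy of RpL37, had 1376 and 1030 in the JH III pools, against 994 and 1302 in the acetone pools, with overlap (0.06 ± 0.40 SE, limma adjusted p = 0.981). The main copies RpL37-1, RpL10Ab and RpS28b are given above.

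The assembly factor relatives did not share a direction. RpL24-like, a relative of yeast Rlp24, which holds the place of a large subunit protein during assembly, had 2239 and 2906 in the JH III pools, against 3930 and 3502 in the acetone pools. Its groups did not overlap (-0.53 ± 0.35 SE, limma adjusted p = 0.767). RpLP0-like, a relative of yeast Mrt4, which holds the place of the stalk base, had 989 and 1563 in the JH III pools, against 1552 and 1658 in the acetone pools (-0.35 ± 0.39 SE, limma adjusted p = 0.867). RpL7-like, a relative of yeast Rlp7, had 3339 and 2265 in the JH III pools, against 1766 and 2792 in the acetone pools (0.30 ± 0.36 SE, limma adjusted p = 0.88), and like RpL39 and RpL29 it was lowest in acetone replicate 1.

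**Figure D3:**
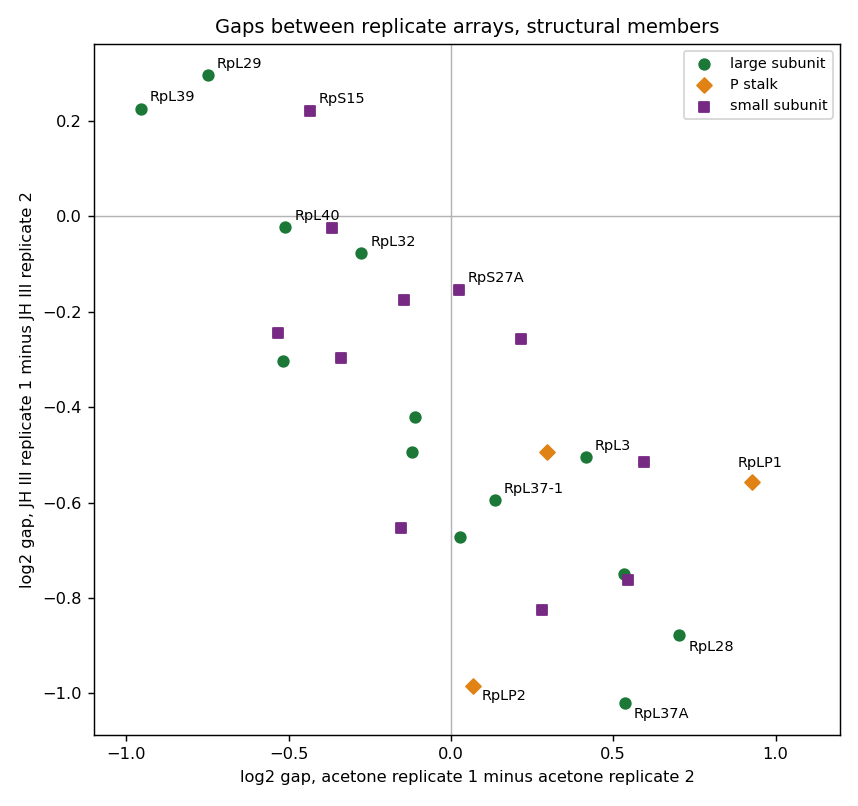
Log2 gap between the JH III arrays (replicate 1 minus replicate 2, y axis) against the log2 gap between the acetone arrays (replicate 1 minus replicate 2, x axis) for the 27 structural members, by part of the ribosome. RpL28 and RpL37A lie at the lower right (low in JH III replicate 1, high in acetone replicate 1) and RpL39 and RpL29 at the upper left.

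Within each treatment the replicates were apart in a patterned way. JH III replicate 1 was below JH III replicate 2 for 24 of the 27 structural members, with a median gap of -0.49 on the log2 scale. This gap was larger in size than the median treatment difference of -0.32 over the same genes. Other bright probe sets shared it, with 134 of the 170 with a mean signal above 10000 in that direction and a median gap of -0.41. Over all tested probe sets it was 5028 of 10474, with a median gap of 0.04. The acetone gap had a median of 0.02, with 14 of 27 higher in replicate 1. Across genes, more negative JH III gaps went with more positive acetone gaps, with Pearson's r = -0.77 and Spearman's rho = -0.77 across 27 genes, and r = -0.11 across all tested probe sets. No such correlation was computed for other bright probe sets alone. These are descriptions across genes that were measured on the same 4 arrays and are not independent. At 1 end of this spread were RpL28 (gaps of -0.88 in JH III and 0.70 in acetone) and RpL37A (-1.02 and 0.54), and at the other RpL39 (0.23 and -0.95) and RpL29 (0.30 and -0.75). The treatment difference of the structural members was lower for genes of longer span in the gene table (r = -0.52, rho = -0.49, n = 27, spans with introns, a description only).

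Genes that work with the ribosome gave no call either. Rack1, a ribosomal protein of the small subunit with another kind of symbol, had 27290 and 40174 in the JH III pools, against 48305 and 50277 in the acetone pools, without overlap (-0.57 ± 0.51 SE, limma adjusted p = 0.832). Of 62 tested mitochondrial ribosomal proteins 0 were called and 0 had an unadjusted p under 0.05, and the median was -0.20. The mitochondrial members of smallest p were mRpS16 (-0.71), mRpS24 (-0.86) and mRpS6 (-0.71). Of these mRpS24 was above the control level on 3 arrays only, with 221 in JH III replicate 1 below it. In the list of initiation and elongation factors, eEF1alpha1, eEF1beta and eEF2 had no match among the probe sets that name 1 gene. Of 34 tested initiation and elongation factors 0 were called, and 5 were lower and 1 higher at an unadjusted p under 0.05. Of all 10474 tested probe sets 393 were lower and 371 higher at that limit. The median of the factors was -0.27 and became 0.01 without JH III replicate 1. For eIF3h, a subunit of the factor that prepares the small subunit for initiation, the signals were 1591 and 4540 in the JH III pools, against 6079 and 5043 in the acetone pools (-1.01 ± 0.37 SE, limma adjusted p = 0.476). eIF2Bbeta, part of the exchange factor that recharges eIF2 with GTP, did not reach the control level in either JH III pool and was at least 2.34-fold lower than in acetone against that level (limma adjusted p = 0.529, not called). eIF2A differed by -0.87 (limma adjusted p = 0.568).

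Of 21 tested genes of ribosome assembly and rRNA synthesis 0 were called. At an unadjusted p under 0.05, 2 were lower and 0 higher, where 393 and 371 of all 10474 tested probe sets were. The median of the assembly genes was -0.11 and became 0.20 without JH III replicate 1. Non1, a GTPase of large subunit assembly, had 3207 and 6217 in the JH III pools, against 13047 and 8003 in the acetone pools, without overlap (-1.18 ± 0.37 SE, limma adjusted p = 0.304). The small subunit assembly protein bys (-0.91) and the rRNA methyltransferase Fib (-0.64) followed, with limma adjusted p of 0.664 and 0.748. Of 15 tested genes of growth signalling 0 were called and 0 had an unadjusted p under 0.05, with a median of 0.13. The members of smallest p were Pdk1, a kinase upstream of S6k (0.84), foxo, a transcription factor held back by insulin signalling (at least 1.92-fold higher against the control level, since both acetone arrays were under it), and Trf2, a TBP relative used at fly ribosomal protein promoters (-0.76). Their limma adjusted p was 0.767, 0.767 and 0.826. Pdk1 and Trf2 were each above the control level on 3 arrays only. Below it were Pdk1 in acetone replicate 2 (290) and Trf2 in JH III replicate 1 (139).

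**Figure D4:**
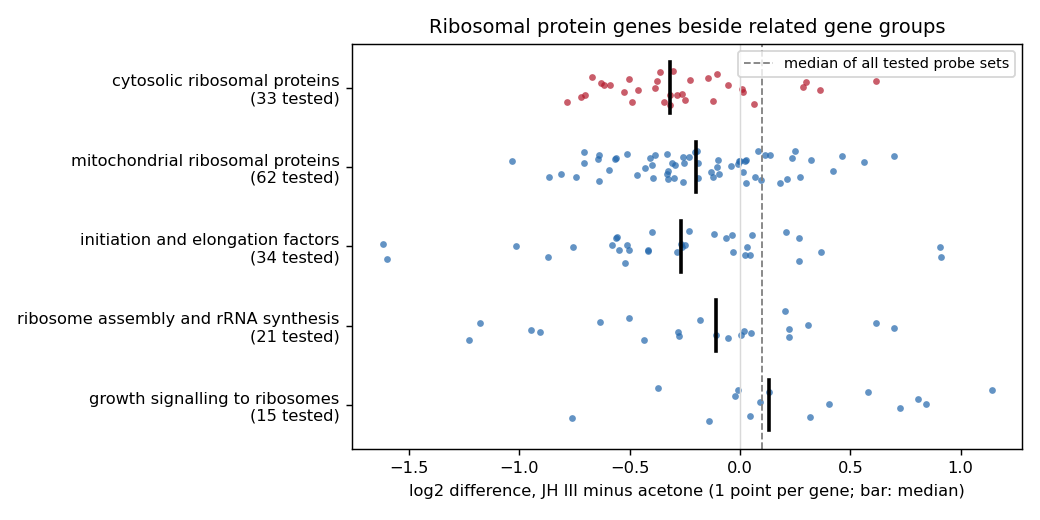
Log2 difference, JH III minus acetone, for each tested gene (points) of the cytosolic ribosomal proteins (red) and 4 related gene groups (blue), with the median of each group (black bars) and of all tested probe sets (dashed line at 0.10). The medians are -0.32, -0.20, -0.27, -0.11 and 0.13 from top to bottom, and points include genes that were at background on some arrays.

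The tissue makeup of the samples was checked with marker lists. Of 7 female germline markers 2 were above the control level on all 4 arrays and bam on none, and their summed signal was 4516 and 6218 in the JH III pools, against 4069 and 4259 in the acetone pools. Of 11 eggshell markers 7 were above it on all 4 arrays, with sums of 36165 and 47823 in the JH III pools, against 38133 and 36826 in the acetone pools. Of 9 testis and accessory gland markers 5 were above it on none (betaTub85D, Acp26Aa, Acp53Ea, Acp36DE and dj) and 0 on all 4, with sums of 1301 to 2426 over the 4 arrays. For 6 muscle markers, 5 of them above it on all 4 arrays, the sum was lowest in JH III replicate 1 and highest in acetone replicate 1 (12017 and 20144 in the JH III pools, against 30550 and 17171 in the acetone pools), and 4 of the 6 singly had that order, as many ribosomal transcripts did. The sum of 4 markers of neurons and eye, 3 of them above the control level on all 4 arrays, had it too (7854 and 10439 in the JH III pools, against 19229 and 11770 in the acetone pools), but through Arr2 alone. Both JH III values of nSyb and elav were above both acetone values. For 6 fat body and yolk markers, 5 of them above it on all 4 arrays, the sums were 60977 and 102930 with JH III and 101721 and 84940 in acetone. For 5 gut markers, all above it on all 4 arrays, the lowest and highest sums came from the same arrays as for muscle, 75472 and 125109 with JH III and 166622 and 115144 in acetone, and 3 of the 5 singly had that order. The part of these differences in the values of the ribosomal transcripts was not tested.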

How the data were processed

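Total RNA of 4 pools of females was labelled with biotin and hybridised to Affymetrix DrosGenome1 arrays, per the labels. The deposited table gives 1 linear intensity per probe set and array. The authors' values had equal 2% trimmed means (500.1 on each array), and the step from probe pairs to 1 signal is not described in the sources used here. The deposited run description of each array, of no fixed unit, was read for chip lot, fluidics module and scan order only.

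Of 14010 probe sets 44 controls were set aside, and 12442 of the rest name 1 gene in the platform annotation. All 37 members matched RefSeq (Release 6 plus ISO1 MT) through their Entrez number, with 0 symbols changed. No coordinates are printed, as the sources used here name no build, and no sequences, as none were given for these genes.

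Values were kept as scaled and tested as log2(signal + 82.8), the pseudocount being the 25th percentile of all values, after the lowest 25% of probe sets by mean were left out (10474 tested). limma 3.58.1 in R 4.3.3 was used (lmFit, eBayes with trend, two-sided, Benjamini-Hochberg over all tested), with 2 residual and 67.4 total degrees of freedom. The fit was tested on simulated arrays. Values beside ± are SD over 2 arrays or SE of the fit, as marked. A gene whose arrays were all below the control level in 1 group and above it in the other has a bound, from geometric means with low values raised to that level. With 2 arrays against 2 an exact permutation test cannot go below p = 0.333, and none was run. Same-numbered arrays of the groups did not deviate together (r = -0.11 between the replicate gaps). Tables and plots were made in Python 3.11.15 (matplotlib 3.10.9, pandas 2.3.3, scipy 1.17.1, numpy 2.4.6).

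The members and gene lists were chosen with earlier results of these data known, so no set test was run. Rrp1 was dropped from the assembly list, because the fly gene of that name is a DNA repair enzyme. Named members were the P stalk, ubiquitin fusions, duplicated and -like genes, RpL3 and RpL32, the 6 most negative and 6 most positive differences and the 4 of smallest replicate spread. From each other list the 3 genes of smallest p were named. Further members are given with their difference. Of the 37 members 1 is not reported here and enters only the counts, medians and ranges over all members. Alternatives were a pseudocount of 1 or 256, quantile normalization, median centring, no filter or one of 50%, eBayes without trend, the methods' t-test, the replicate block, averaging the probe sets of each gene (the same here) and each array left out.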

Additional observations from a re-analysis of the deposited data

How the results depend on the processing

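With 2 arrays per group, precision is limited by their number. In every alternative with a test 0 members were called, and the lowest adjusted p of a named member was 0.241. The replicate block called 0 members, and over all probe sets it called 2 in place of 17. A crossed pairing, added after seeing the data, called 109 of all probe sets, 0 members, and gave 5 members at an unadjusted p under 0.05. Median centring gave 1 such member (RpL28). The share of all tested probe sets under 0.05 is not given here for either fit. The 5 and the 1 therefore cannot be set against it. For the fits with an array left out, 1 group holds 1 array, and counts at an unadjusted p are not given here. Members lower without overlap were 12, and 5 after quantile normalization. With an array left out, where overlap is harder by construction, they were 12 to 26 (20 without acetone replicate 1, 26 without JH III replicate 2). For the fits with an array left out, the share of all tested probe sets that were lower without overlap is not given here. The 12 to 26 therefore cannot be set against it. Members higher without overlap were 0, and 5 after quantile normalization, 2 with no filter and 0 to 7 with an array left out. The 2 with no filter were RpL10Aa and RpS19b, each above the control level on 0 arrays, so that they say nothing of expression. For no filter and for an array left out, the share of all probe sets that were higher without overlap is not given here. The 2 and the 0 to 7 therefore cannot be set against it. For JH III replicate 2 against acetone replicate 2 alone, 1 array against 1 cannot overlap. The 25 members lower and 8 higher in that pair count signs only, beside 49.5% of all tested probe sets below 0. The median of the members stayed below 0 in all 16 alternatives, between -0.13 and -0.57 with an array left out. Under eBayes without trend, the methods' t-test, both blocks and averaging of probe sets it could not move from -0.32. Those alternatives leave the differences as they are.

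Of 352 values of 22 tested named members under alternatives 25, from 13 members, changed sign and 327 did not. For the 25 the cause was not tested. Many of the 327 could not change sign. The filters, eBayes without trend, the methods' t-test, both blocks and averaging of probe sets leave a member's difference as it is. Quantile normalization gave 0.055 for RpL10Ab, 0.23 for RpS27A, 0.0030 for RpS28b and 0.15 for RpS29. Median centring gave -0.18 for RpL37-2, -0.22 for RpL40, -0.14 for all tested probe sets and -0.11 for growth signalling. Without JH III replicate 1 the value was -0.13 for RpL37-2, 0.13 for RpLP2, 0.072 for RpS29, 0.011 for initiation and elongation factors and 0.20 for assembly genes. Without acetone replicate 1 it was -0.087 for RpL29, -0.12 for RpL37-2, -0.11 for RpL39, -0.24 for RpL40, -0.021 for RpL7-like, 0.052 for RpS29 and 0.093 for assembly genes. At the other end of the range with an array left out were RpL29 (0.66), RpL37-2 (0.26), RpL39 (0.84), RpL7-like (0.62), RpLP2 (-0.86), initiation and elongation factors (-0.55) and assembly genes (-0.28). In the pair of second replicates alone it was 0.069 for RpL28, -0.23 for RpL29, -0.32 for RpL37-2, 0.11 for RpL37A, -0.23 for RpL39, -0.23 for RpL40, -0.29 for RpL7-like, 0.12 for RpLP1 and the P stalk, 0.16 for RpLP2, 0.18 for RpS29, 0.27 for initiation and elongation factors and 0.067 for assembly genes.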
